A study of Mus musculus with 5 samples.

Results

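The genes described here are 8 genes of the mitochondrion, taken by symbol from the 54532 genes of the deposited table. Ndufa4l2, Mgarp, Bnip3 and Cox4i2 are induced when oxygen is low. Ndufa4, Cox4i1 and Bnip3l are the standard forms, or paralogues, of 3 of them, and Fundc1 is a further receptor for the removal of mitochondria. They were selected on the normalized counts of the same heterozygous and control libraries, with the difference between the groups already known. Their values are therefore given as a description with no test, and nothing is supported with them.

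RNA was sequenced from neurospheres, floating cultures of neural stem and progenitor cells, grown for 7 days with FGF-2 and EGF from the hippocampus of newborn (P0) C57BL/6 mice. The first group has 3 libraries of genotype hGFAPCre+, Arid1b flox/+, called heterozygous here, and the second has 2 littermate control libraries of genotype hGFAPCre+, Arid1b+/+. All 5 carry the hGFAP-Cre transgene, which drives Cre in neural progenitors and the cells derived from them, so Arid1b is targeted only where Cre was active. Arid1b encodes a DNA-binding subunit of BAF, a complex that remodels chromatin, and the design asks how haploinsufficiency alters expression. Cells of 1 mouse were plated together, but whether every library is a different animal is not stated. The p-values below therefore reflect variation among libraries only, some of which may be technical.

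When oxygen falls, the enzymes that mark HIF transcription factors for destruction slow down, and HIF switches on genes that lower the demand for oxygen. Several of those genes act in mitochondria. NDUFA4L2 and COX4I2 are alternative forms of respiratory chain proteins, MGARP affects mitochondrial movement and shape, and BNIP3, BNIP3L (also called NIX) and FUNDC1 sit in the outer mitochondrial membrane and bind LC3 proteins, which brings mitochondria to the autophagosome. BNIP3L is itself a known HIF target, whereas FUNDC1 is known to be controlled mainly by phosphorylation.

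HIF binds DNA at a core of ACGTG or GCGTG, and the sequence before Bnip3 and Mgarp is shown because both hold such a core. RefSeq promoters (GRCm38.p6, 250 bases before to 50 after the start, 300 in all) were matched for 4 of the 8 members, Bnip3, Mgarp, Ndufa4 and Fundc1. Capitals mark every ACGTG or GCGTG on either strand, where CACGT and CACGC are the same letters read on the opposite strand. The stretches run 5′ to 3′ on the - strand of each gene, at chr7:138909528-138909637 for Bnip3 and chr3:51396743-51396797 for Mgarp.
Bnip3: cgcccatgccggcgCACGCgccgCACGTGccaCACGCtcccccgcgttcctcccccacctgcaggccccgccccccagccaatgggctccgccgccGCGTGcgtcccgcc
Mgarp: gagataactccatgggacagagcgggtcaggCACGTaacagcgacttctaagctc

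In Bnip3 an ACGTG core lay on both strands as the palindrome CACGTG, 108 bases before the start, which is also the letters of an E-box. GCGTG cores lay 117, 99 and 35 bases before it. Mgarp had 1 ACGTG core, on the opposite strand 219 bases before its RefSeq start. The annotated gene of Mgarp used for coordinates below begins further upstream, at chr3:51396738. Only letters upstream of that position are printed, so the core lies nearer to that start. Ndufa4 had no ACGTG and 1 GCGTG, 36 bases into the transcript, and Fundc1 had neither. Of 32851 promoters of this length, 19.6% hold ACGTG, 32.4% hold GCGTG and 7.15% hold CACGTG on either strand. A match is a description of letters and not a site of binding.

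Depth was 19833803 to 25494722 recovered reads per library. The 3 heterozygous libraries correlated with each other across genes at 0.988 to 0.989 on the log2 scale, and the controls correlated with each other at 0.952. Correlations with the heterozygous libraries were 0.927 to 0.930 for control replicate 1 and 0.971 to 0.974 for control replicate 2. These correlations are across genes, which are not independent replicates. Each member is therefore set against each control separately. Heterozygous replicate 2 had 0 reads of each of 4 Y-linked genes and 36851 reads of Xist, and the other 4 libraries held reads of every one of the Y-linked genes. Among those 4, Xist had 1 read in heterozygous replicate 1 and 301 in heterozygous replicate 3, against 6 and 16 in the controls. Arid1b was at 1102, 1145 and 1003 normalized counts in heterozygous libraries, against 1510 and 1730 in controls, and its log2 fold change of -0.58 did not pass (limma adjusted p = 0.0701). All 12 progenitor markers were detected in every library, led by Vim and Fabp7, and markers of neurons, astrocytes and the oligodendrocyte lineage were abundant as well. Neurospheres are mixtures, so fewer cells of a type and less RNA per cell cannot be told apart.

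All 8 members passed the filter on low values (a mean of at least 10 normalized counts over the 5 libraries). Ndufa4l2, Mgarp and Cox4i2 passed only through the controls, as their heterozygous means were 2.75, 5.08 and 6.81. Every heterozygous library was below both controls for Ndufa4l2, Mgarp, Bnip3, Cox4i2, Bnip3l and Fundc1, and above both for Ndufa4 and Cox4i1. Of all 16411 genes tested, 23.3% were lower and 23.4% were higher in every heterozygous library. Since this contrast served to pick the members, nothing is read from these counts.

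Ndufa4l2, the hypoxia-induced paralogue of Ndufa4 that is known to restrain respiration when oxygen is low, had few or no reads in heterozygous neurospheres. Ndufa4l2 had 5.32, 0 and 2.92 normalized counts in heterozygous replicates 1, 2 and 3, against 513 and 68.6 in control replicates 1 and 2. These values stand for 5, 0 and 3 reads in heterozygous libraries and 441 and 76 reads in controls, so the heterozygous values lie close to the limit of detection. A count of 0 in heterozygous replicate 2 allows up to 3 reads, or 2.67 normalized counts, for counting error only. The groups did not overlap, and the highest heterozygous library stood at 7.76% of control replicate 2, the lower control. The means were 2.75 ± 2.67 (SD, n = 3) in heterozygous and 291 ± 314 (SD, n = 2) in control neurospheres. The log2 fold change on the log2(normalized count + 1) scale was -6.02 (SE 1.08), and it was -4.58 against control replicate 2 alone and -7.46 against control replicate 1 alone. The authors' deposited table gives -1.17 for this gene, with a standard error of 0.403, and does not state whether its fold changes were shrunk. For the other members the authors' deposited table gives -3.70 (Mgarp), -2.29 (Bnip3), -2.31 (Cox4i2), -0.89 (Bnip3l), -0.39 (Fundc1), 0.37 (Cox4i1) and 0.63 (Ndufa4). Ndufa4l2 (ENSMUSG00000040280, mm10 chr10:127514967-127517154, + strand) shares 32 bases with Shmt2 on the opposite strand, so some reads may be shared. Shmt2 differed by much less, at 3553, 3778 and 3973 normalized counts in heterozygous libraries and 3664 and 5965 in controls.

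Ndufa4 stood on the other side. Its protein was first assigned to complex I and is now known as a subunit of complex IV, cytochrome c oxidase. Ndufa4 (ENSMUSG00000029632, chr6:11900292-11907497, - strand) had 6936, 6927 and 8719 normalized counts in heterozygous libraries, against 3981 and 5469 in controls. The lowest heterozygous library was 1.27 times the higher control. The log2 fold change was 0.68 (SE 0.19), with 0.45 against control replicate 2 alone and 0.91 against control replicate 1 alone. The heterozygous mean was 7527 ± 1032 (SD, n = 3) and the control mean 4725 ± 1052 (SD, n = 2). Set against other genes of the respiratory chain, only Cox8b of 20 nuclear complex IV genes tested had a larger log2 fold change, and none of 13 NDUFA genes of complex I did.

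Levels of 2 genes can be set side by side only per length, so each normalized count was divided by the summed length of the gene's exons in kilobases. On that scale Ndufa4l2 made up 0.0967%, 0% and 0.0423% of the Ndufa4l2 plus Ndufa4 pair in heterozygous libraries, against 14.0% and 1.56% in controls. The 2 controls thus differed from each other several-fold, and the heterozygous libraries lay below both. The summed level of the pair was 5027, 5016 and 6316 normalized counts per kilobase in heterozygous libraries and 3351 and 4023 in controls, higher in every heterozygous library.

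**Figure D1:**
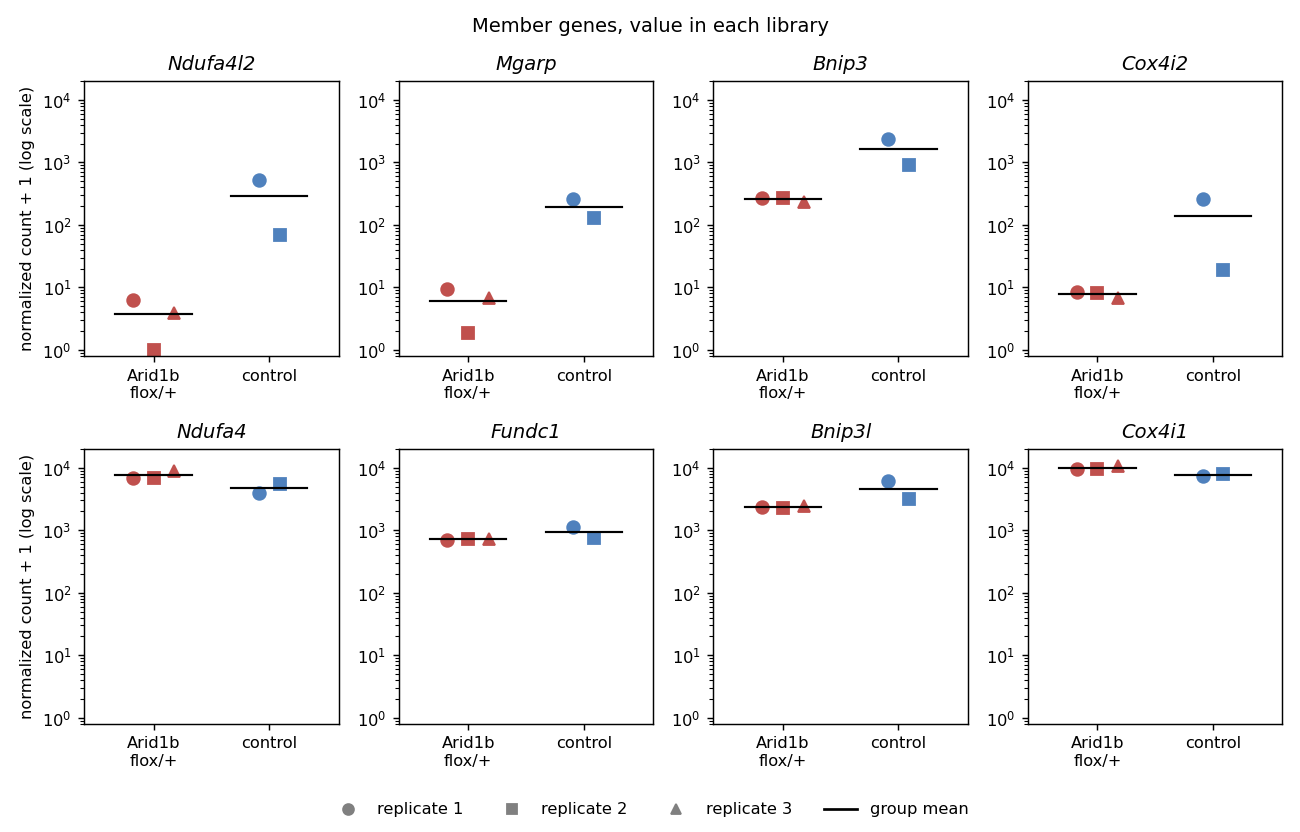
Normalized count plus 1 of each member in each library, on a log scale that is the same in all 8 panels, with heterozygous libraries (Arid1b flox/+) left and controls right. Symbols mark replicates and lines mark group means. The hypoxia-induced genes in the upper row are lower in every heterozygous library, and Ndufa4 and Cox4i1 in the lower row are higher.

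Mgarp, a mitochondrial protein that links to the machinery for transport along microtubules and is known as a HIF target, was at most a small percentage of either control in every heterozygous library. Mgarp (ENSMUSG00000037161, chr3:51388412-51396738, - strand) had 8.52, 0.890 and 5.85 normalized counts in heterozygous libraries, against 254 and 126 in controls. These are 8, 1 and 6 reads in heterozygous libraries and 218 and 139 reads in controls. The highest heterozygous library was at 6.79% of the lower control, while the controls differed from each other by a ratio of 2.02. The heterozygous mean was 5.08 ± 3.87 (SD, n = 3) and the control mean 190 ± 90.6 (SD, n = 2). The log2 fold change was -5.17 (SE 0.75), and it was -4.67 against control replicate 2 alone and -5.68 against control replicate 1 alone. Leaving out heterozygous replicate 2, which held a single read, gave -4.47. Of the 7 other members, Ndufa4l2 had the profile nearest to that of Mgarp over the 5 libraries, with a root mean square difference of 0.73 on the log2 scale after centring.

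Bnip3, a hypoxia-induced receptor for mitophagy whose promoter letters are printed above, was lower by a smaller factor and with far more reads behind it. Bnip3 (ENSMUSG00000078566, chr7:138890836-138909519, - strand) had 271, 272 and 231 normalized counts in heterozygous libraries, against 2384 and 897 in controls. The heterozygous libraries lay within a ratio of 1.18 of each other, and the highest of them was at 30.4% of the lower control. The heterozygous mean was 258 ± 23.7 (SD, n = 3) and the control mean 1640 ± 1052 (SD, n = 2), with a log2 fold change of -2.50 (SE 0.39). It was -1.80 against control replicate 2 alone and -3.21 against control replicate 1 alone. A processed pseudogene, Gm18258, shares 852 bases with Bnip3 on the opposite strand, so some reads may be shared. Gm18258 was low, at 1.06, 2.67 and 0.974 normalized counts in heterozygous libraries and 57.0 and 2.71 in controls. These counts do not set how many reads are shared.

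Bnip3l, the paralogue of Bnip3 that is best known for clearing mitochondria from maturing red blood cells, differed less. Bnip3l (ENSMUSG00000022051, chr14:66985239-67008877, - strand) had 2376, 2259 and 2441 normalized counts in heterozygous libraries, against 6074 and 3172 in controls. The groups did not overlap, but the highest heterozygous library was at 77.0% of control replicate 2. The log2 fold change was -0.90 (SE 0.26), and it was -0.43 against control replicate 2 alone and -1.37 against control replicate 1 alone. The heterozygous mean was 2359 ± 92.5 (SD, n = 3) and the control mean 4623 ± 2052 (SD, n = 2). Of the erythroid markers, Hbb-bt, Hba-a1 and Gata1 were at 0 in all 5 libraries. A pseudogene, Bnip3l-ps, had 10.6, 10.7 and 12.7 normalized counts in heterozygous libraries and 24.4 and 13.5 in controls.

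Per kilobase, Bnip3 made up 16.3%, 17.0% and 13.9% of the Bnip3 plus Bnip3l pair in heterozygous libraries, against 40.1% and 32.5% in controls. In both groups Bnip3l was thus the more abundant of these receptors. Unlike the Ndufa4 pair, the summed level of this pair was lower, at 736, 706 and 735 normalized counts per kilobase in heterozygous libraries and 2627 and 1218 in controls.

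Fundc1, the receptor that hypoxia is known to activate through loss of a phosphate, was nearly level with control replicate 2. Fundc1 (ENSMUSG00000025040, chrX:17556564-17572325, - strand) had 705, 711 and 727 normalized counts in heterozygous libraries, against 1143 and 762 in controls. The groups did not overlap, with the highest heterozygous library at 95.4% of control replicate 2. The log2 fold change of -0.39 (SE 0.19) was -0.09 against control replicate 2 alone and -0.68 against control replicate 1 alone. The gene is X-linked, and heterozygous replicate 2, which lacks Y-linked reads, lay between the other 2 heterozygous libraries. Without it the heterozygous mean was 716 ± 15.5 (SD, n = 2), against 714 ± 11.3 (SD, n = 3) with it and 952 ± 269 (SD, n = 2) in controls. In its profile Fundc1 was nearest to Bnip3l among the members (root mean square difference 0.28).

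Cox4i2 encodes the hypoxia form of subunit 4 of cytochrome c oxidase and is otherwise known from lung and from pericytes. Cox4i2 (ENSMUSG00000009876, chr2:152754173-152765037, + strand) had 7.45, 7.12 and 5.85 normalized counts in heterozygous libraries, against 256 and 18.1 in controls. This is 7, 8 and 6 reads in heterozygous libraries and 220 and 20 reads in controls, so the difference is carried mostly by control replicate 1. The controls differed by a ratio of 14.2, the widest of the 8 members. The highest heterozygous library was at 41.3% of control replicate 2. The heterozygous mean was 6.81 ± 0.849 (SD, n = 3) and the control mean 137 ± 168 (SD, n = 2), with a log2 fold change of -3.17 (SE 1.02) that was -5.05 without control replicate 2. Without control replicate 1 the gene was under the filter and no fold change was fitted.

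Cox4i1, the subunit 4 form of most tissues, was the most abundant member per kilobase. Cox4i1 (ENSMUSG00000031818, chr8:120668222-120674207, + strand) had 9512, 9429 and 10684 normalized counts in heterozygous libraries, against 7292 and 7812 in controls. The heterozygous mean was 9875 ± 702 (SD, n = 3) and the control mean 7552 ± 368 (SD, n = 2). The lowest heterozygous library was 1.21 times the higher control, with a log2 fold change of 0.39 (SE 0.13) that ranged from 0.33 to 0.44 with any 1 library left out. The gene overlaps Emc8 on the opposite strand by 352 bases. It also overlaps Gm20388, annotated as protein coding on the same strand, by 5986 bases. Gm20388 was at 0 normalized counts in every library, and how reads were assigned between the overlapping genes is not stated. Of 20 other nuclear complex IV genes tested, 6 had a larger log2 fold change than Cox4i1 (Cox5b, Cox6b1, Cox6c, Cox7a2, Cox7b and Cox8b). Per kilobase, Cox4i2 made up 0.154%, 0.148% and 0.107% of the Cox4i2 plus Cox4i1 pair in heterozygous libraries, against 6.46% and 0.453% in controls. Cox4i1 and Ndufa4 had the most alike profiles of any pair of members (root mean square difference 0.19).

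**Figure D2:**
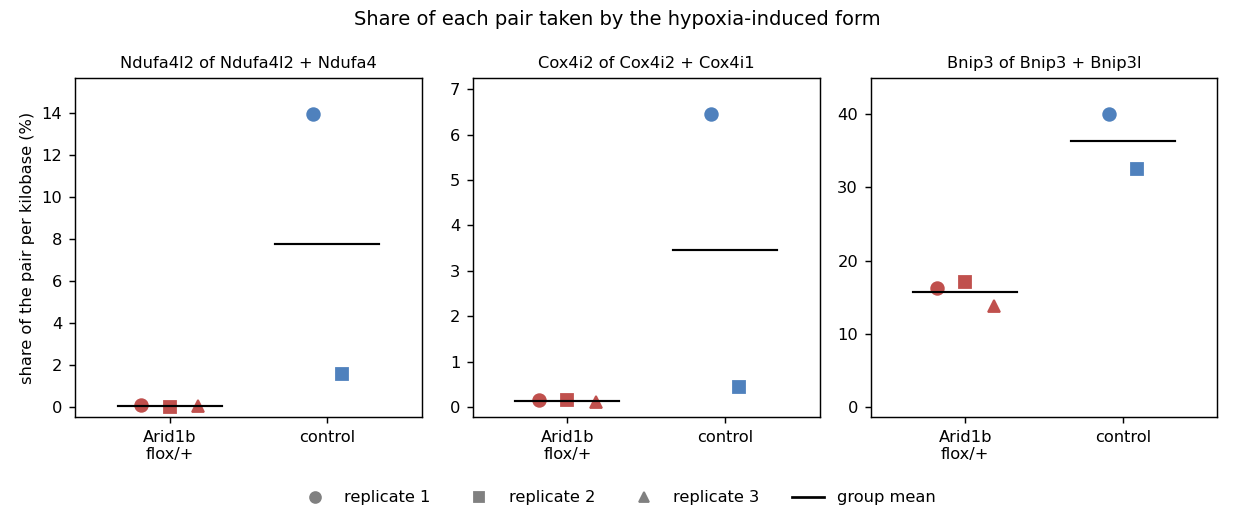
Share of each pair, in percent of normalized counts per kilobase, that the hypoxia-induced form takes in each library, with heterozygous libraries (Arid1b flox/+) left and controls right. Symbols mark replicates, lines mark group means, and each panel has its own axis. Control replicate 1 has the highest share in all 3 pairs, and the Bnip3 share of control replicate 2, at 32.5%, stays near that of control replicate 1.

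Ndufa4l2 and Cox4i2 are also enriched in pericytes, so markers of mural cells were read beside them. Summed over 15 mural markers, normalized counts were 4611, 3921 and 3522 in heterozygous libraries and 3671 and 3475 in controls, and most of the sum was Notch3 and Rgs5. Without these 2 markers the other 13 summed to 200, 182 and 166 in heterozygous libraries and 254 and 112 in controls. Rgs5 was at 2327, 1302 and 1270 in heterozygous libraries and 1192 and 284 in controls, higher in control replicate 1 than in control replicate 2. Of the 8 mural markers tested, 6 had a positive and 2 a negative log2 fold change, with a median of 0.39. Des, an intermediate filament and 1 of those 2, named after its values were seen, was at 8.52, 8.01 and 7.79 in heterozygous libraries and 64.0 and 13.5 in controls. Kcnj8, Abcc9, Higd1b, Tagln and Tbx18 had at most 8.52 normalized counts in any library, Tagln and Foxs1 were at 0 in control replicate 2, and Higd1b was at 0 in heterozygous replicate 3 and in control replicate 1. None of the 8 passed in limma. Whether mural cells bear on the Ndufa4l2 and Cox4i2 values was not tested.

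Set against each control alone, the members fell into an order that depended on the control. The heterozygous mean of Ndufa4l2 was 0.536% of control replicate 1 and 4.01% of control replicate 2, and that of Mgarp was 2.00% and 4.05%. For Cox4i2 these values were 2.66% and 37.7%, and for Bnip3 they were 10.8% and 28.8%. Cox4i2 was thus lower than Bnip3 relative to control replicate 1 and less so relative to control replicate 2. Bnip3l stood at 38.8% and 74.4%, Fundc1 at 62.5% and 93.7%, Cox4i1 at 135% and 126%, and Ndufa4 at 189% and 138%. With 2 control libraries the spread of the controls cannot be told from the effect of a single unusual library.

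**Figure D3:**
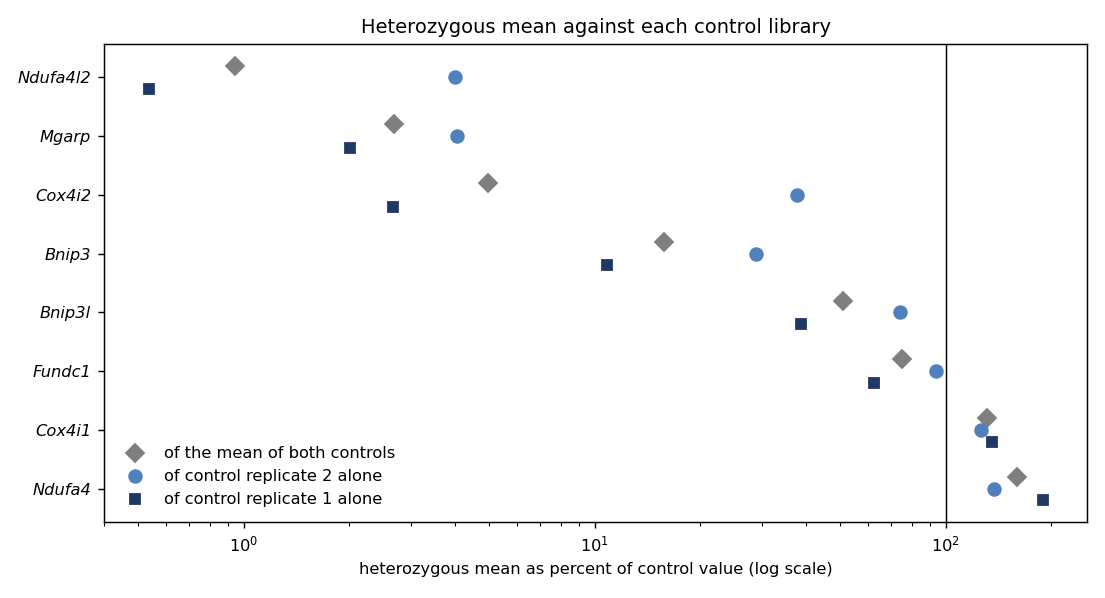
Heterozygous mean of each member as percent of the mean of both controls, of control replicate 2 alone and of control replicate 1 alone, on a log scale with a line at 100%. Mgarp moves least between the 2 controls among the hypoxia-induced genes, from 2.00% to 4.05%, and Cox4i2 moves most, from 2.66% to 37.7%.

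By level per kilobase, the order of the group means in heterozygous neurospheres was Cox4i1 (6371), Ndufa4 (5451), Bnip3l (611), Fundc1 (304), Bnip3 (114), Cox4i2 (8.64), Ndufa4l2 (2.51) and Mgarp (2.46). In controls it was Cox4i1 (4872), Ndufa4 (3421), Bnip3l (1198), Bnip3 (724), Fundc1 (405), Ndufa4l2 (266), Cox4i2 (174) and Mgarp (91.7). In heterozygous libraries Cox4i1 and Ndufa4 overlapped in their ranges, as did Ndufa4l2 and Mgarp. In controls Bnip3l overlapped with Bnip3, Bnip3 with Fundc1, Fundc1 with Ndufa4l2, and Ndufa4l2, Cox4i2 and Mgarp with each other, so these neighbours are not separated by their spread.

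A search covered 12201 other annotated genes with a mean of at least 50, leaving out pseudogenes and genes with Gm-number or Rik names. The genes among them whose profile over the 5 libraries came nearest to each hypoxia-induced member were found. The measure was the root mean square difference of centred log2 values. It uses the values that chose the members, so the genes found share the group difference by construction. Ndufa4l2, Mgarp and Cox4i2 had at most 8 reads in any heterozygous library, so distances are not compared between members. For Ndufa4l2 the nearest genes were Car9, a carbonic anhydrase (root mean square difference 0.79), Slc16a3, a lactate exporter (1.03), and Bmp4, a growth factor (1.66). For Mgarp they were Slc16a3 (0.63), Car9 (0.996) and Vegfa, the angiogenic growth factor (1.28). For Bnip3 they were Ero1l, an oxidase of the endoplasmic reticulum (0.13), Prelid2 (0.13) and Pdk1, a kinase that shuts pyruvate out of mitochondria (0.20). For Cox4i2 they included Txnip, an inhibitor of thioredoxin and glucose uptake (0.11), and Fam71f2 (0.25). Txnip had 230, 272 and 199 normalized counts in heterozygous libraries and 7018 and 523 in controls, so like Cox4i2 it was high in control replicate 1. Txnip and Fam71f2 did not pass in limma (adjusted p of 0.123 and 0.172).

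The counts in the lists that follow are to be read beside those over all genes tested. By limma 1.9% of all genes were called higher and 0.944% lower, 2.84% in all, and 26.1% had an unadjusted p under 0.05 (13.8% higher and 12.4% lower). DESeq2 called 7.15% higher and 7.01% lower. Leaving out control replicate 1, limma called 9.3% higher and 7.68% lower, and leaving out control replicate 2, it called 27.2% higher and 23.5% lower.

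HIF targets with roles outside the mitochondrion, or not among the members, were counted next. This list was drawn up with earlier results of these libraries known, so its direction is not independent evidence. Among the 30 tested, 12 fell, 18 did not pass and no gene rose (limma with Benjamini-Hochberg adjustment), beside 0.944% of all genes tested that were called lower. The median log2 fold change was -1.02, against 0.01 over all genes tested, and only Pfkfb4 (0.64) and Pkm (0.06) had positive values. Slc16a3 fell to 38.3, 24.9 and 33.1 normalized counts in heterozygous libraries, against 1862 and 1263 in controls (limma adjusted p = 0.0092, log2 fold change -5.55 with SE 0.28). Egln3, a HIF prolyl hydroxylase that HIF induces, was at 701, 673 and 678 in heterozygous libraries and 1529 and 1852 in controls (-1.30, SE 0.14, limma adjusted p = 0.0258). The others that fell were Pfkl (-2.03), Hk2 (-1.12), Kdm3a (-1.11), Vegfa (-3.22), Egln1 (-0.86), Bhlhe40 (-1.40), Car9 (-5.52), Ankrd37 (-2.38), P4ha2 (-3.01) and Ero1l (-2.24). In this list edgeR called 12 lower and DESeq2 24, the latter beside 7.01% of all genes. A fit without the intensity trend called 3 lower, and a fit with a replicate block called 1. Egln1 and Ankrd37 were nearly equal in the 2 controls, with ratios of 1.01 and 0.995, whereas Car9 differed between them by 10.2. Ankrd37 had few reads, with 11, 8 and 9 in heterozygous libraries and 44 and 57 in controls. In the list 21 fell without control replicate 1 (median -0.68) and 26 fell and 1 rose without control replicate 2 (-1.27), and 0, 1 and 0 without heterozygous replicates 1, 2 and 3. Cell type markers moved beside this list. Of 12 neuron markers 7 rose and all 12 had positive values, with sums of 55972, 45447 and 41732 normalized counts in heterozygous libraries and 21619 and 30522 in controls. Of 8 astrocyte markers Aqp4 and Fgfr3 fell, with sums of 70128, 72730 and 60236 in heterozygous libraries and 100335 and 93680 in controls. Hes5 fell among 12 progenitor markers (median -0.49), whose sums were 225041, 200888 and 231010 in heterozygous libraries and 165864 and 182975 in controls. Sox10 fell among 9 oligodendrocyte lineage markers (median -0.66), whose sums were 57186, 66136 and 73133 in heterozygous libraries and 52614 and 83305 in controls. Markers of these lists were detected in every library, and their part in the HIF target values was not tested.

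A further 10 genes that HIF is known to regulate in or for mitochondria gave a mixed result. Pdk1 fell, to 690, 654 and 607 normalized counts in heterozygous libraries against 4403 and 2400 in controls (limma adjusted p = 0.0258, log2 fold change -2.32 with SE 0.26). The other 9 did not pass, among them Lonp1, the matrix protease known to degrade COX4I1 in hypoxia (-0.57, limma adjusted p = 0.0665), and Mxi1, an antagonist of Myc (-1.30, limma adjusted p = 0.0773). Lonp1 was at 2844, 2925 and 2928 in heterozygous libraries and 4667 and 3943 in controls, with no overlap between the groups. The median of the list was -0.19 in limma. In edgeR 1 gene was called lower, and DESeq2 called 1 higher and 3 lower. Without control replicate 1 the limma median was -0.27, and without control replicate 2 it was -0.12. None of the listed genes passed when a heterozygous library was left out.

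Among 26 genes of mitophagy and the LC3 adaptor system other than the 3 receptors above, none passed in limma, 4 had an unadjusted p under 0.05, edgeR called none and DESeq2 called 1 higher and 1 lower. The smallest p-values belonged to Bcl2l13, another mitophagy receptor, at 2408, 2454 and 2229 normalized counts in heterozygous libraries and 3465 and 3186 in controls (-0.49, limma adjusted p = 0.0765). Next came Gabarapl2, an LC3 relative (0.54, limma adjusted p = 0.0849), and Nbr1, a cargo receptor (-0.32, limma adjusted p = 0.158). The median log2 fold change of the list was -0.03. The 4 of 26 was below the share over all genes. The median became 0.08 without control replicate 1, where 4 genes rose and 1 fell, and -0.34 without control replicate 2, where 6 rose and 13 fell.

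No gene in the lists of nuclear complex IV and NDUFA genes passed in limma. Of 20 nuclear complex IV genes tested, 15 had a positive log2 fold change, with a median of 0.29, and 12 were higher in every heterozygous library, beside 23.4% of all genes. The other 5, Cox17 (-0.90), Cox6b2 (-0.56), Cox7a2l (-0.38), Surf1 (-0.18) and Cox6a2 (close to 0), had negative values. None passed in limma or edgeR, 6 had an unadjusted p under 0.05 in limma and DESeq2 called 3 higher. Cox8b, an isoform of heart and skeletal muscle, had 122, 134 and 172 normalized counts in heterozygous libraries and 20.9 and 60.5 in controls (1.96, limma adjusted p = 0.0696). Cox7b (0.46, limma adjusted p = 0.109) and Cox6c (0.50, limma adjusted p = 0.113) followed. Of 13 NDUFA genes of complex I, 12 had positive values and Ndufa6 a negative one (median 0.25), 5 had an unadjusted p under 0.05, none passed in limma or edgeR and DESeq2 called 3 higher. They were led by Ndufa5 (0.58, limma adjusted p = 0.0543), Ndufa12 (0.66, limma adjusted p = 0.0838) and Ndufa1 (0.64, limma adjusted p = 0.0893). Without control replicate 1 the medians were 0.24 for complex IV and 0.26 for NDUFA genes. Without control replicate 2 they were 0.40 and 0.27.

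**Figure D4:**
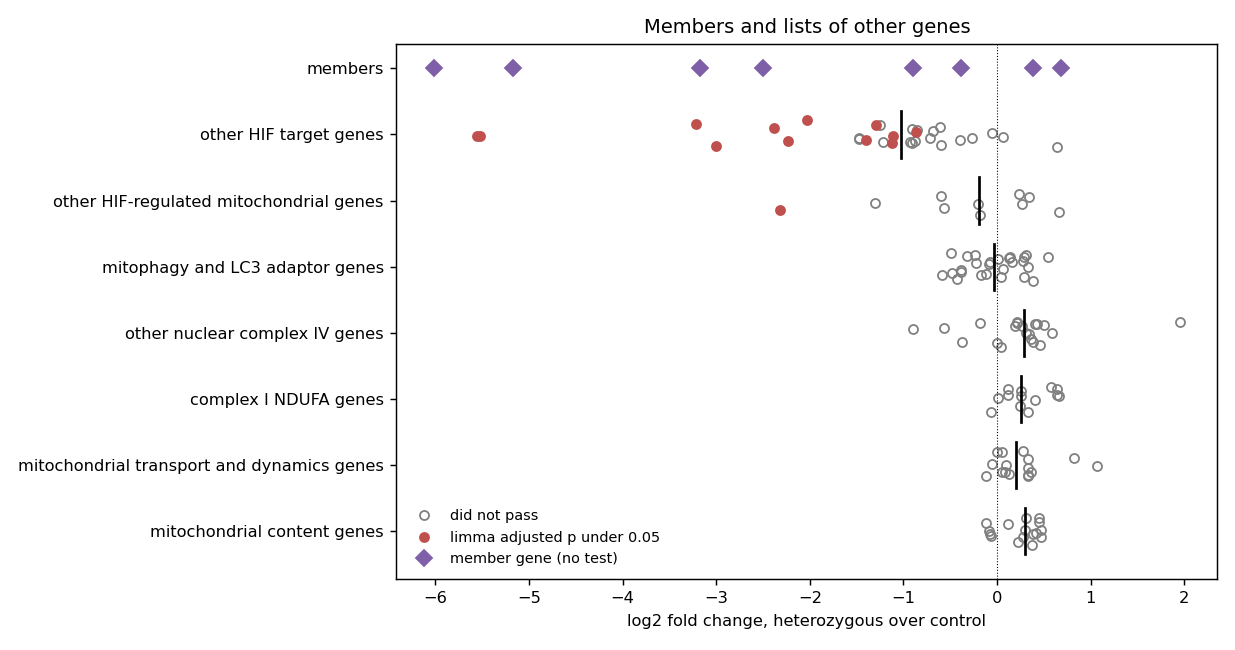
Log2 fold change, heterozygous over control, of the 8 members (diamonds, no test) and of the genes tested in 7 lists of other genes, with a vertical line at each list's median. Filled circles passed limma at an adjusted p under 0.05. The 12 HIF targets and Pdk1 that passed are all to the left of 0, and the complex IV and NDUFA medians lie at 0.29 and 0.25.

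Genes of mitochondrial transport, the process in which Mgarp is known to act, and of mitochondrial content did not pass in limma or edgeR. Of 16 transport and dynamics genes, 2 had an unadjusted p under 0.05 in limma and DESeq2 called 2 higher. Leaving out control replicate 1 gave 2 that rose, and leaving out control replicate 2 gave 8. They were led by the neuronal kinesins Kif5c (1.07, limma adjusted p = 0.0510) and Kif5a (0.82, limma adjusted p = 0.0784), with Snph, a docking protein of axons, next (0.27, limma adjusted p = 0.252). The neuron markers given above moved with these genes, and their part in the kinesin values was not tested. Of 16 content genes, among them Vdac2 (0.44), Slc25a4 (0.47) and Hspe1 (0.38), the median was 0.30, 5 had an unadjusted p under 0.05 and DESeq2 called 2 higher. Without control replicate 1, 1 content gene rose and 1 fell (median 0.06), and without control replicate 2, 10 rose (0.44).

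The HIF subunits and their oxygen sensors showed no call of their own outside Egln1 and Egln3. Of 8 genes none passed in limma or edgeR, 4 had an unadjusted p under 0.05 and DESeq2 called 1 lower. Those with the smallest p were Arnt, the partner subunit of HIF (-0.69, limma adjusted p = 0.0883), Epas1, which encodes HIF-2 alpha (0.50, limma adjusted p = 0.127), and Vhl, which marks HIF for destruction (-0.32, limma adjusted p = 0.155). Hif3a, named after its values were seen, had 87.3, 157 and 102 normalized counts in heterozygous libraries and 1265 and 164 in controls, with most of the difference in control replicate 1 (limma adjusted p = 0.177). Leaving out control replicate 1, 1 gene of the list fell, and leaving out control replicate 2, 3 rose and 3 fell. HIF is regulated mainly through protein stability, which these data do not measure.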

How the data were processed

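Per the submitters' processing notes, reads were handled with STAR and DESeq2 on mm10. Their versions, the annotation, the counter and whether strand was used are not stated there. Each library's deposited column is a normalized signal: read counts that the authors divided by a size factor. In the same table the authors deposited a log2 fold change and, as scores, its standard error and Wald statistic. Their deposited p-value and adjusted p-value were not used. With a tolerance of 0.001 read, 100% of values were whole reads, and edgeR on these reads called 240 genes higher and 169 lower.

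Values were tested as log2(normalized count + 1) with limma (version 3.58.1, R 4.3.3) and an intensity trend (16411 genes, mean 10 or more, two-sided tests, Benjamini-Hochberg threshold 0.05). Fold changes on this scale understate those of low genes. Alternatives used edgeR 4.0.16 and DESeq2 1.42.0, other pseudocounts, filters and scalings, a replicate block, and each library left out. The code was tested on simulated data. Exon lengths and coordinates came from GENCODE M21 (mm10). The 54532 genes were matched by Ensembl ID, 54495 of them in that annotation. Where a symbol had 2 rows, the row with more counts was used. No library column was left unused.

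The members and gene lists were chosen with earlier results of these data known. Genes named are the members, Arid1b, up to 8 called genes of each list by smallest p (or the 3 with the smallest p where at most 1 was called), the 3 nearest profiles (mean 50 or more) of each hypoxia-induced gene and the 2 most abundant genes of each marker list; a few others are named after their values were seen, and some genes that the rule names are not reported here. Libraries of 1 group differed by a mean chi-square per gene of 8.04 to 19.2 (heterozygous) and 118 (controls), so none was treated as a repeat. Intervals and limits cover counting error only.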

Additional observations from a re-analysis of the deposited data

How the results depend on the processing

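With 2 controls that differ widely, the counts of calls depend on the fit. Of 16411 genes, 311 were called higher and 155 lower, and 13 genes of the 8 lists of other genes were called lower and 0 higher. DESeq2 called 1174 higher and 1151 lower, with 29 list genes lower and 12 higher. Without the intensity trend, 54 were higher, 21 lower and 3 list genes lower. With 1 library left out, 0 to 4477 genes were higher and 0 to 3868 lower, with 0 to 49 list genes lower and 0 to 45 higher. A pseudocount of 5 and no filter each called 1 list gene higher. Between libraries of the same replicate number, correlations of deviations were 0.028 for number 1 and -0.040 for number 2. With 2 controls their deviations mirror each other, so these values cannot show whether the numbers mark pairs. The replicate block left 0 genes higher, 1 lower and 1 list gene lower. The causes were not tested. No member changed sign in 111 fitted values under other settings, a direction that the choice of members fixes, and 104 moved by less than 1 SD. The 7 that moved further came from leaving out a control. With 1 library left out, the difference in share, heterozygous minus control, was -13.9 to -1.51 points for Ndufa4l2 (main value -7.72), -6.32 to -0.316 for Cox4i2 (-3.32) and -24.3 to -16.8 for Bnip3 (-20.6), which was -15.2 without division by length. Depth limits Ndufa4l2, Mgarp and Cox4i2, which had at most 8 reads in any heterozygous library.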
